A study of Mus musculus with 16 samples.

Results

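Alveolar type 2 (AT2) cells that lacked surface CD44 were compared between Sftpc mutant and control mice. The comparison used 8 of the 16 RNA libraries of the series, 4 per genotype and 1 per animal, and it covers every expressed gene. The labels name the genotypes SP-C Mutant and SP-C WT, and both carry the same treatment text, OG TMX, which is not spelled out. The allele, the driver of recombination, strain, age and time after treatment are not given in the sources used here. Lung cells had been freed of CD45+ and CD31+ cells, and live AT2 cells were gated as Epcam+, CD104- and high for CD200 before the split by CD44. Columns of the count table begin with R26 or OG. R26 was read as control and OG as Sftpc mutant, an inference that no label states: were it wrong, every direction below would turn around against genotype. The groups are therefore called R26 and OG. Values per library follow the animal numbers in the column names, 1, 2, 7 and 8 for R26 and 3, 5, 6 and 7 for OG.

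AT2 cells make, store and recycle surfactant, the lipid and protein film that keeps alveoli open. They can also divide and turn into flat alveolar type 1 (AT1) cells that carry out gas exchange. Sftpc encodes surfactant protein C, which is made as a membrane-bound proprotein in the endoplasmic reticulum and trimmed on its way to lamellar bodies, the storage organelles of surfactant. Mutations in SFTPC are a known cause of inherited interstitial lung disease, and misfolded forms of the proprotein are known to burden the folding and degradation systems of the cell.

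The CD44- libraries held 11489364 to 21363816 counts, and a level of 3 counts, taken as the floor, was 0.261 CPM or less in each of them. The first principal component of these 8 libraries took 86.3% of the variance and separated OG from R26, and the second, with 3.49%, separated R26 animals 2 and 8 from 1 and 7. No library repeated another: chi-square per degree of freedom between libraries of a group was 2.47 to 5.63 in OG and 4.72 to 10.6 in R26. Of 15516 genes tested, 6113 (39.4%) were higher and 4592 (29.6%) lower in OG at an adjusted p under 0.05, or 69.0% in all. At least 2-fold changes numbered 2129 upward and 1764 downward. The 4 OG libraries lay above all 4 R26 libraries for 5993 genes (38.6%) and below them for 4493 (29.0%). The median log2 fold change over all genes was 0.12. It depended on scaling: normalization on the 8 libraries alone gave a median of 0.0095 with 5571 genes higher and 5468 lower, so the split between directions is less certain than the changes themselves. Medians of gene lists are given after subtraction of the median of all genes, and each count of members should be read against the 39.4% and 29.6% above. Levels are in CPM, counts scaled to a common library size, and differences are log2 fold changes of OG against R26 with their standard error (SE). CPM are not divided by gene length, so they compare libraries and not genes.

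**Figure D1:**
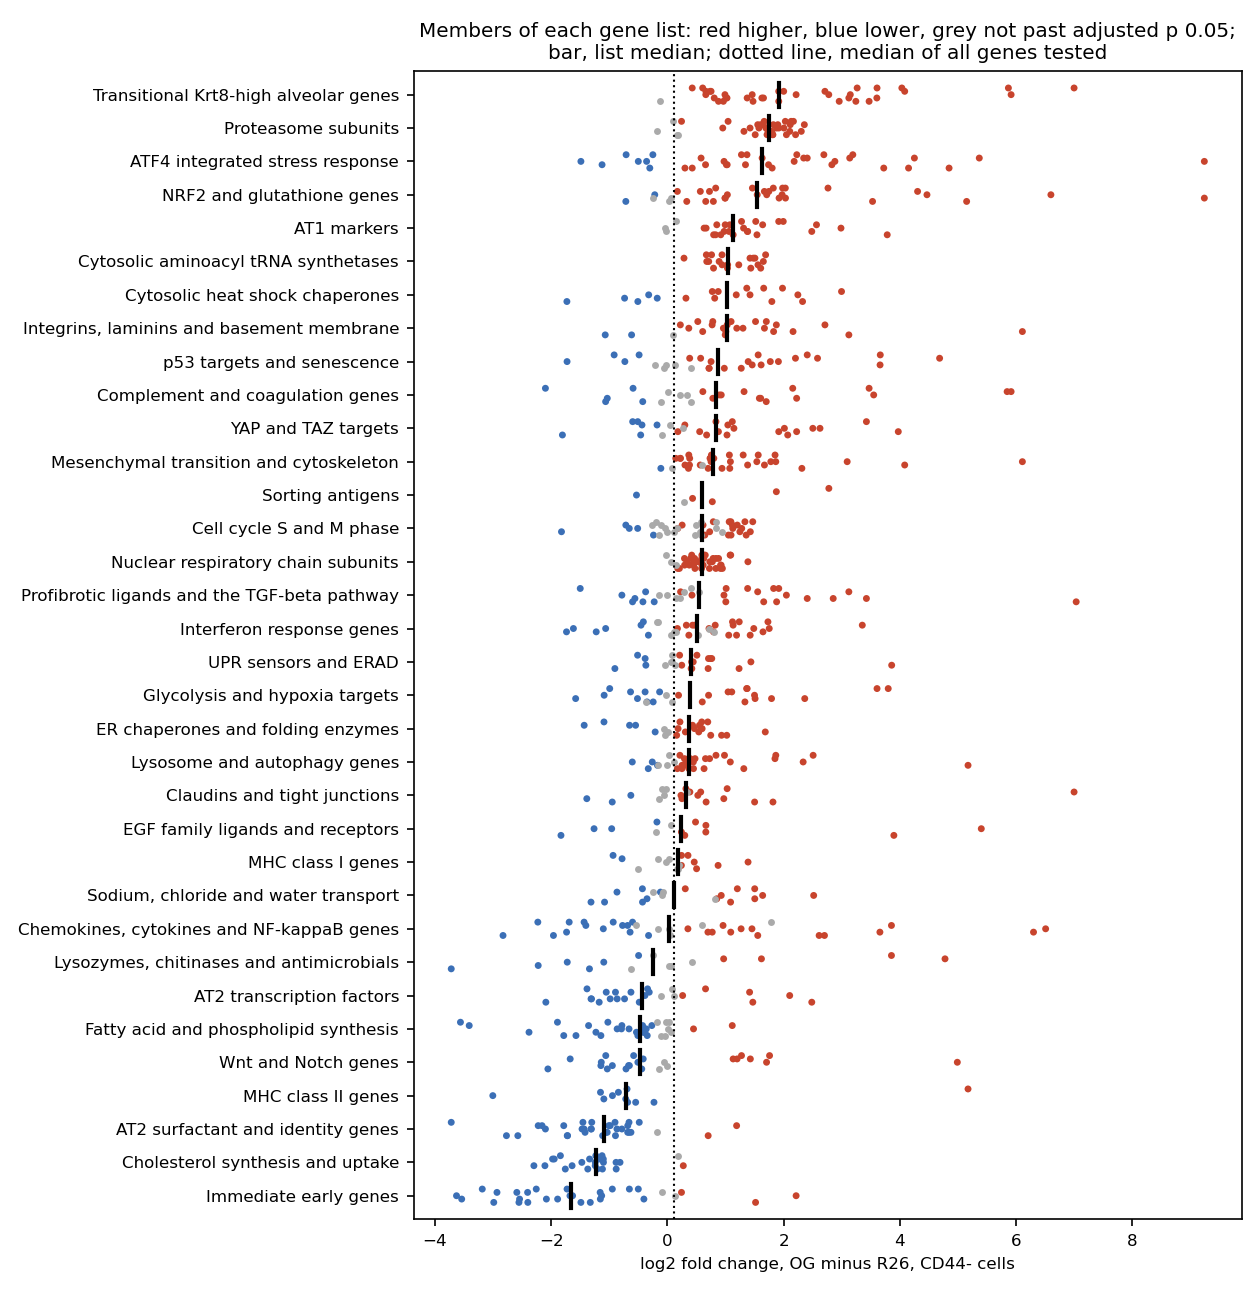
Log2 fold change of OG against R26 in CD44- cells (x axis) for each tested member (points) of the gene lists (y axis), ordered by list median; red points were higher, blue points lower and grey points did not pass an adjusted p of 0.05, black bars are list medians and the dotted line is the median of all genes, 0.12. Transitional, proteasome, ATF4 and NRF2 lists lie farthest to the right, and cholesterol and immediate early lists farthest to the left.

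Sftpc itself, on chromosome 14 at 70520941 to 70524081 in GRCm38, was lower in OG. Its level was 86273, 86308, 71101 and 74685 CPM in the R26 libraries and 11103, 11611, 12002 and 12022 CPM in the OG libraries. The groups did not overlap, and the fold change was -2.77 ± 0.12 on the log2 scale (SE, n = 4 and 4 libraries, adjusted p = 1.77e-14). The counts do not separate the alleles of Sftpc. In bulk libraries such as these, fewer cells that express a gene and less RNA per cell cannot be told apart. Of the antigens used in the gate, Epcam was 131 ± 4.61 CPM in R26 and 177 ± 4.64 CPM in OG (SD, n = 4), and Cd200 was 178 ± 9.39 and 123 ± 3.66 CPM. Cd44 RNA was present in both CD44- sorts, at 329 ± 4.45 CPM in R26 and 562 ± 24.1 CPM in OG (SD, n = 4; log2 fold change 0.77 ± 0.08 SE, adjusted p = 1.1e-08). Itgb4, which encodes CD104, rose from 6.78 ± 0.378 to 24.9 ± 1.8 CPM (SD, n = 4). Ptprc, which encodes CD45, was at 0.164 ± 0.0279 CPM in R26 and 1.21 ± 0.329 CPM in OG. Pecam1, which encodes CD31, was at 3.88 ± 1.08 and 4.65 ± 0.598 CPM (SD, n = 4) and did not pass the test (adjusted p = 0.501).

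Surfactant and other AT2 identity genes were lower in OG in 31 of 34 cases and higher in 2, with a list median of -1.20. The surfactant proteins moved by unequal amounts. Sftpa1, a collagen-like host defence protein of surfactant, went from 18540 ± 797 to 7491 ± 257 CPM (SD, n = 4), and Sftpb, needed for lamellar body formation, from 18907 ± 1966 to 9094 ± 633 CPM. Sftpd changed less, from 2371 ± 89.5 to 1479 ± 50.4 CPM. The lipid pump of lamellar bodies, Abca3, had a log2 fold change of -0.90 ± 0.08, their membrane protein Lamp3 of -1.11 ± 0.06, and Napsa, a protease that trims the surfactant proproteins, of -0.66 ± 0.13. Slc34a2, the phosphate carrier of AT2 cells, fell from 21145 ± 1306 to 8508 ± 71.4 CPM (SD, n = 4).

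Secreted AT2 products other than surfactant proteins fell too. Lyz2, the lysozyme of mouse AT2 cells and macrophages, stood at 25010, 27962, 22946 and 24589 CPM in R26 and at 4915, 5627, 5481 and 5524 CPM in OG. Lyz1 fell from 2487 ± 66 to 189 ± 18.8 CPM (SD, n = 4; log2 fold change -3.72 ± 0.09 SE, adjusted p = 2.9e-19). The 2 lysozyme genes are near-identical copies, so the division of reads between them is uncertain. Hc, which encodes complement component C5, had a log2 fold change of -2.10 ± 0.06, the chemokine Cxcl15 of -1.43 ± 0.06 and the phosphatase inhibitor Ppp1r14c of -1.42 ± 0.04. The members that went the other way were proteases. Ctsh, a cathepsin that takes part in proSP-B and proSP-C processing, rose from 797 ± 58.1 to 1820 ± 60.2 CPM (SD, n = 4; adjusted p = 2.03e-14). Pgc was at 3.82 ± 1.37 CPM in R26 and 6.17 ± 0.788 CPM in OG (SD, n = 4), its libraries overlapped, and its call (adjusted p = 0.0255) was lost in 9 of 32 alternative settings, among them the omission of R26 CD44- animal 1, 7 or 8 or of OG CD44- animal 3 or 6. Omission of those R26 libraries also took the median of all genes from 0.12 to between 0.0029 and 0.0058.

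Of 24 transcription factors of the AT2 lineage, 15 were lower and 6 higher, with a list median of -0.55. Nkx2-1, the lineage factor of lung epithelium, was the least changed of the lowered genes named here, at 596 ± 9.16 CPM in R26 and 426 ± 5.11 CPM in OG (SD, n = 4; log2 fold change -0.48 ± 0.05 SE). Cebpa and Etv5, which maintain AT2 gene expression, had log2 fold changes of -0.89 ± 0.07 and -0.98 ± 0.07. Elf3, Ehf and Tfcp2l1 fell by 1.38, 1.17 and 1.05 on the log2 scale, and Cebpd by 2.09. Hopx, a homeodomain protein linked to AT1 fate, was the most raised of the list, from 38 ± 3.26 to 212 ± 9.63 CPM (SD, n = 4). Etv4, an effector of FGF signalling like Etv5, rose from 1.12 ± 0.221 to 4.79 ± 0.826 CPM while Etv5 fell.

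The amino acid branch of the stress response held some of the largest rises. ATF4 is a transcription factor whose translation goes up when eIF2alpha is phosphorylated, and its targets import amino acids, make serine, glycine and asparagine, and charge tRNAs. Its known sites contain the amino acid response element, searched here as TGATGNAA on both strands of promoters from RefSeq (GRCm38.p6, a short window around each gene's start). The element was found in 10 of 36 promoters of ATF4 targets (27.8%) and in 5 of 13 of cytosolic tRNA synthetases (38.5%), against 3.97% of 32851 promoters in the table. Here and below, promoters were available for only part of each list, such as 29 of 35 tested ATF4 targets and 13 of 20 tested synthetases. A match describes letters only and is not evidence of binding. A stretch upstream of the start is printed for each of 4 genes that lead the results of the next paragraphs, with the element in capitals.
Slc7a11, chr3:50443623-50443709, minus strand: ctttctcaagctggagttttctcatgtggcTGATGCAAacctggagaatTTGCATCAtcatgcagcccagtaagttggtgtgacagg
Chac1, chr2:119351019-119351086, plus strand: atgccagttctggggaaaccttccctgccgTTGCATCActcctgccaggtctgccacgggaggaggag
Asns, chr6:7693210-7693262, minus strand: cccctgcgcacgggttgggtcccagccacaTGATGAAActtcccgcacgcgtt
Aars, chr8:111033700-111033767, plus strand: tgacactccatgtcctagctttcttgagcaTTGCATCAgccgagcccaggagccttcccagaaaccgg
Slc7a11 has 2 matches, 1 on each strand, and each of the others has 1.

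Slc7a11, the cystine importer of the plasma membrane and also a target of NRF2, was close to silent in R26 at 1.21, 0.5, 1.12 and 1.03 CPM and stood at 542, 626, 617 and 603 CPM in OG. Its log2 fold change was 9.24 ± 0.13 (SE, n = 4 and 4, adjusted p = 4.94e-22). Mthfd2, a mitochondrial enzyme of one-carbon metabolism, followed with 1.77, 1.5, 1.25 and 1.23 CPM in R26 and 55.5, 64.4, 59 and 56.8 CPM in OG. All OG libraries were far above all R26 libraries for both genes. Chac1, which degrades glutathione, rose from 1.76 ± 0.316 to 31.1 ± 3.06 CPM, and the pseudokinase Trib3 from 11.9 ± 2.06 to 108 ± 5.77 CPM (SD, n = 4).

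Genes for making serine, glycine and asparagine rose as well. Phgdh, Psat1 and Psph encode the enzymes of serine synthesis in order, and their log2 fold changes were 3.72 ± 0.29, 2.69 ± 0.14 and 1.74 ± 0.13. Phgdh was scarce, at 0.372 ± 0.102 CPM in R26 and 4.96 ± 0.928 CPM in OG (SD, n = 4). Shmt2, which turns serine into glycine in mitochondria, rose from 11.7 ± 0.597 to 53.3 ± 2.71 CPM, and asparagine synthetase Asns from 13.4, 16.3, 12 and 12 CPM to 110, 124, 118 and 118 CPM. Slc7a1, an importer of arginine and lysine, rose from 17 ± 0.565 to 121 ± 6.03 CPM (SD, n = 4).

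In all, 28 of 35 tested ATF4 targets were higher and 7 lower, with a list median of 1.51. RNA of the factors Atf4 and Ddit3 rose by less than the list median. Atf4 RNA was at 124 ± 8.7 CPM in R26 and 153 ± 10.9 CPM in OG (SD, n = 4; log2 fold change 0.30 ± 0.06 SE, adjusted p = 5.73e-05), and the estimate was 0.15 without R26 CD44- animal 7. That omission also took the median of all genes from 0.12 to 0.0058. Ddit3, which encodes the death-linked factor CHOP, rose from 9.69 ± 0.873 to 19.8 ± 1.44 CPM. The 7 lowered genes included Atf3 (-1.49 ± 0.19), which also stands among the immediate early genes below, the glutamine carrier Slc1a5 (-0.71 ± 0.04) and Ppp1r15a (-0.50 ± 0.07), the phosphatase subunit that reverses eIF2alpha phosphorylation.

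Every one of 20 cytosolic aminoacyl tRNA synthetases, the enzymes that load amino acids onto tRNAs, was higher in OG, with a list median of 0.92. Aars rose from 83.2 ± 2.12 to 253 ± 8.16 CPM, Nars from 51.3 ± 1.18 to 161 ± 6.87 CPM and Eprs from 88.7 ± 2.51 to 238 ± 5.82 CPM (SD, n = 4). Wars had a log2 fold change of 1.51 ± 0.06 (adjusted p = 2.42e-17). Qars was the least changed, at 84.5 ± 8.16 and 103 ± 2.09 CPM, and its call (adjusted p = 0.00172) was lost without R26 CD44- animal 1, 7 or 8, with estimates of 0.15 to 0.17. These omissions also took the median of all genes from 0.12 to between 0.0029 and 0.0058.

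**Figure D2:**
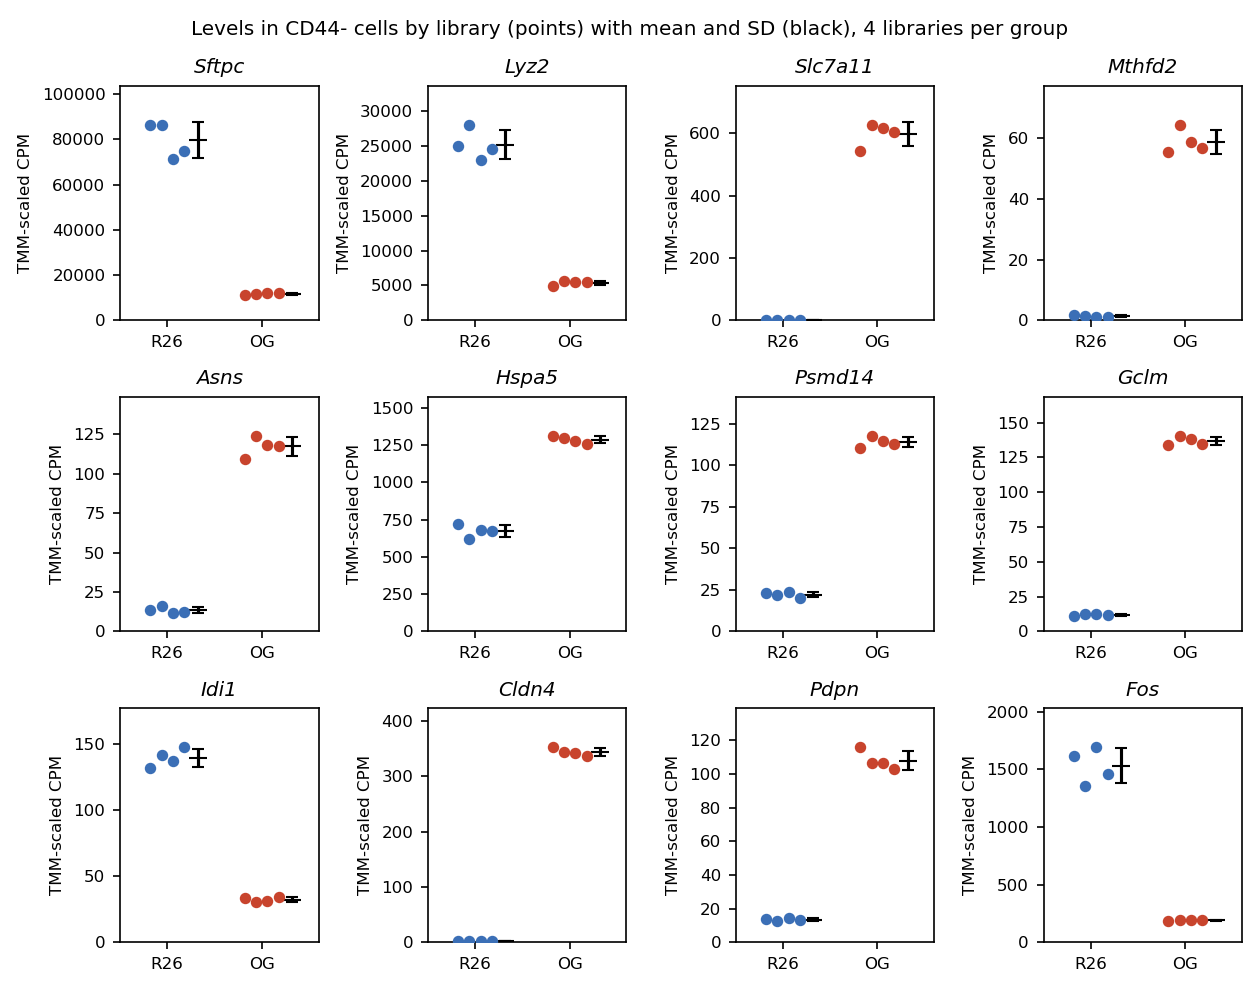
Level per library (points, CPM on linear axes from 0) of 12 genes in R26 and OG CD44- cells, with the mean and SD of the 4 libraries in black. The groups do not overlap for any of the 12: Sftpc, Lyz2, Idi1 and Fos are lower in OG and the other genes higher.

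Chaperones of the endoplasmic reticulum rose by less. Of 24 tested, 16 were higher and 5 lower, with a list median of 0.26. The element that ATF6 and XBP1 are known to bind, known as the ER stress response element and searched on both strands, was found in 8 of 26 promoters of this list (30.8%) and in 0.119% of all promoters. The Hspa5 promoter is printed with the element in capitals, since Hspa5 (BiP) is the usual gauge of the response.
Hspa5, chr2:34771995-34772073, plus strand: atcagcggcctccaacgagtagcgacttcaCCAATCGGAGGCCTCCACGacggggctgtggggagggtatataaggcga
Hspa5 was at 720, 617, 680 and 676 CPM in R26 and at 1311, 1299, 1276 and 1256 CPM in OG, a log2 fold change of 0.93 ± 0.06 (adjusted p = 1.14e-12). The disulfide isomerases Pdia3 and Pdia4 had log2 fold changes of 0.70 ± 0.04 and 0.75 ± 0.04, and Sdf2l1, a partner of BiP, rose from 8.11 ± 1.37 to 26 ± 1.53 CPM (SD, n = 4).

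Some members of the unfolded protein response went down. The BiP cofactor Dnajb9 had a log2 fold change of -0.55 ± 0.07, Nucb2, a calcium-binding protein of the secretory pathway, of -1.43 ± 0.09, and Herpud1, a scaffold of the degradation machinery, of -0.90 ± 0.05. Xbp1 was at 201 ± 7.61 CPM in R26 and 141 ± 2.13 CPM in OG (SD, n = 4), and gene counts do not show its spliced share. Of 23 sensors and degradation genes tested, 14 were higher and 4 lower, with a list median of 0.29. The sensors Atf6 and Ern1 rose slightly, by 0.45 ± 0.05 and 0.41 ± 0.05. Sel1l, which holds the degradation complex together, had a log2 fold change of 0.71 ± 0.05. Larger were the rises of Vcp, the ATPase that pulls proteins out of the membrane (1.23 ± 0.05), and Wfs1 (1.44 ± 0.07).

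The proteasome rose as a block. Of 36 subunits, 32 were higher and 0 lower, with a list median of 1.64. Psmd14, the deubiquitinase of the lid, was at 22.9, 21.8, 24 and 20.3 CPM in R26 and at 111, 118, 115 and 113 CPM in OG (log2 fold change 2.36 ± 0.06, adjusted p = 5.13e-20). Psmb5, a catalytic subunit of the core, rose from 13 ± 1.46 to 64 ± 2.97 CPM, and Psma1 of the outer ring from 48.1 ± 2.2 to 169 ± 7.93 CPM (SD, n = 4). The base ATPases Psmc3 and Psmc6 had log2 fold changes of 2.03 ± 0.06 and 2.00 ± 0.06, and Psmd1 of 1.82 ± 0.05. The smallest differences of the list were those of the interferon-induced subunits and activators, 5 genes of which the catalytic subunits are given here. Psmb9 was at 10.5 ± 0.999 and 11.9 ± 0.716 CPM (adjusted p = 0.16), Psmb10 at 13 ± 1.05 and 11.5 ± 1.88 CPM (adjusted p = 0.205). Psmb10 gained a call, without a change of direction, in 6 of 32 alternative settings. Psmb8 passed narrowly, at 21.6 ± 2.97 and 25.5 ± 1.74 CPM (adjusted p = 0.0186), with overlapping libraries, and lost its call in 21 of 32 alternative settings.

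Cytosolic chaperones rose in 13 of 18 cases and fell in 5, with a list median of 0.91. The small heat shock proteins Hspb1 (60.4 ± 6.35 to 483 ± 22.4 CPM), Cryab (29.2 ± 2.89 to 138 ± 5.12 CPM) and Hspb8 (69.2 ± 0.473 to 274 ± 6.47 CPM; SD, n = 4) rose most among the genes named here. Hsp90ab1 had a log2 fold change of 1.42 ± 0.07. The inducible Hspa1a went down, from 1877, 1048, 2132 and 1335 CPM to 487, 486, 482 and 474 CPM, with R26 animals 1 and 7 above 2 and 8. Hspa1a shares near-identical sequence with Hspa1b, so its counts are uncertain.

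Lysosome and autophagy genes were higher in 26 of 34 cases and lower in 4, with a list median of 0.25. The protease Ctsd rose from 216 ± 16.5 to 1228 ± 7.97 CPM, and Sqstm1, a receptor for ubiquitinated cargo that is also a target of NRF2, from 564 ± 5.82 to 2058 ± 86.9 CPM (SD, n = 4). Gabarapl1, a coat protein of autophagosomes, had a log2 fold change of 1.85 ± 0.06. Tfeb, a regulator of lysosomal genes, was lower at 8.35 ± 0.737 CPM against 12.7 ± 1.05 CPM.

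NRF2 is the transcription factor that drives genes against oxidants and for glutathione synthesis, through the antioxidant response element. Its core, TGACNNNGC on either strand, was present in 10 of 37 promoters of the NRF2 list (27.0%), 4 of 33 of the proteasome list (12.1%) and 12.4% of all promoters. A stretch is printed for Gclm, which encodes the regulatory subunit of the rate-limiting enzyme of glutathione synthesis, and for Psmb5 from the proteasome.
Gclm, chr3:122245393-122245461, plus strand: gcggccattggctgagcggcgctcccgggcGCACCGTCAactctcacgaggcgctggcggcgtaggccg
Psmb5, chr14:54618004-54618072, minus strand: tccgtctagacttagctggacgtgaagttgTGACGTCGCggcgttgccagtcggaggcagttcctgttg
In the NRF2 list 28 of 33 genes were higher and 2 lower, with a list median of 1.43. Gclm was at 11.3, 12.2, 12.2 and 11.6 CPM in R26 and at 134, 140, 138 and 135 CPM in OG. The catalytic subunit Gclc, already high in R26, went from 993 ± 71.3 to 2739 ± 123 CPM (SD, n = 4).

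Other antioxidant genes followed the same direction. Srxn1, which repairs peroxiredoxins, rose from 20.1 ± 1.06 to 715 ± 41.7 CPM (SD, n = 4; log2 fold change 5.15 ± 0.08 SE, adjusted p = 8.02e-24). Nqo1, a quinone reductase, rose from 1.41 ± 0.421 to 30.8 ± 2.17 CPM, and Gpx2, a glutathione peroxidase of epithelia, from 5.37 ± 1.22 to 105 ± 5.33 CPM. Taldo1 of the pentose phosphate pathway had a log2 fold change of 2.76 ± 0.06. The 2 lowered members, catalase (Cat, -0.71 ± 0.10) and Sod2 (-0.22 ± 0.05), handle hydrogen peroxide and superoxide.

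Sterol synthesis moved down almost as a whole. Of 24 genes of cholesterol synthesis and uptake, 22 were lower and 1 higher, with a list median of -1.35. These genes are known targets of SREBP2, which is released when membrane cholesterol is low. The sterol regulatory element TCACNCCAC was found in 1 of 20 promoters of the list (5%) and in 1.24% of all promoters, and the match, in Hmgcs1, is shown with the element in capitals.
Hmgcs1, chr13:119690184-119690252, plus strand: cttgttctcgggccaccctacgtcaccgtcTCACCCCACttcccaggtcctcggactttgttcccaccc
Insig1, the sensor that retains SREBP, was at 304, 360, 307 and 361 CPM in R26 and at 65.1, 69.4, 69.3 and 67.7 CPM in OG. Idi1, an enzyme of isoprenoid synthesis, fell from 139 ± 6.87 to 32.3 ± 1.77 CPM (SD, n = 4; log2 fold change -2.11 ± 0.09 SE, adjusted p = 5.18e-15). The late enzymes Cyp51 and Dhcr7 fell by 1.64 and 1.97 on the log2 scale. Stard4, a sterol carrier, fell by 1.95 and Srebf2 itself by 1.10. Ebp was the only member called higher (0.27 ± 0.10, adjusted p = 0.0139), and it lost its call in 19 of 32 alternative settings.

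Fatty acid and phospholipid synthesis, which feeds surfactant, was lower in 23 of 32 genes and higher in 2, with a list median of -0.58. The carbohydrate-responsive factor Mlxipl fell from 19.6 ± 2.13 to 1.71 ± 0.498 CPM, and Gpam, the first enzyme of glycerolipid synthesis, from 361 ± 10.2 to 69.4 ± 3.68 CPM (SD, n = 4). Fatty acid synthase Fasn went from 5643, 5743, 5025 and 4571 CPM to 3094, 3085, 2967 and 3053 CPM. Acly, Srebf1 and the lipid carrier Fabp5 had log2 fold changes of -1.14 ± 0.06, -0.86 ± 0.07 and -1.78 ± 0.11, while the elongase Elovl5 rose by 0.45 ± 0.05. Nuclear subunits of the respiratory chain were higher in 37 of 40 cases and lower in 0, with a list median of 0.48. Ndufa4 and Cox5a, parts of cytochrome oxidase, and Sdhb, of succinate dehydrogenase, had log2 fold changes of 1.39 ± 0.08, 1.09 ± 0.08 and 0.91 ± 0.07.

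Glycolytic and hypoxia genes were split, with 14 of 26 higher and 9 lower and a list median of 0.28. Eno1 and Pkm, enzymes of late glycolysis, rose from 8.83 ± 0.367 to 45.4 ± 1.8 CPM and from 146 ± 10.7 to 412 ± 12.4 CPM, and the glucose carrier Slc2a1 from 23.3 ± 0.986 to 60.0 ± 2.28 CPM (SD, n = 4). Pdk1, which keeps pyruvate out of mitochondria, and the phosphofructokinase Pfkp fell by 1.09 and 0.99 on the log2 scale. Pgk1, a glycolytic enzyme with near-identical copies in the genome and so uncertain counts, rose from 6 ± 1.13 to 83 ± 9.84 CPM (SD, n = 4).

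**Figure D3:**
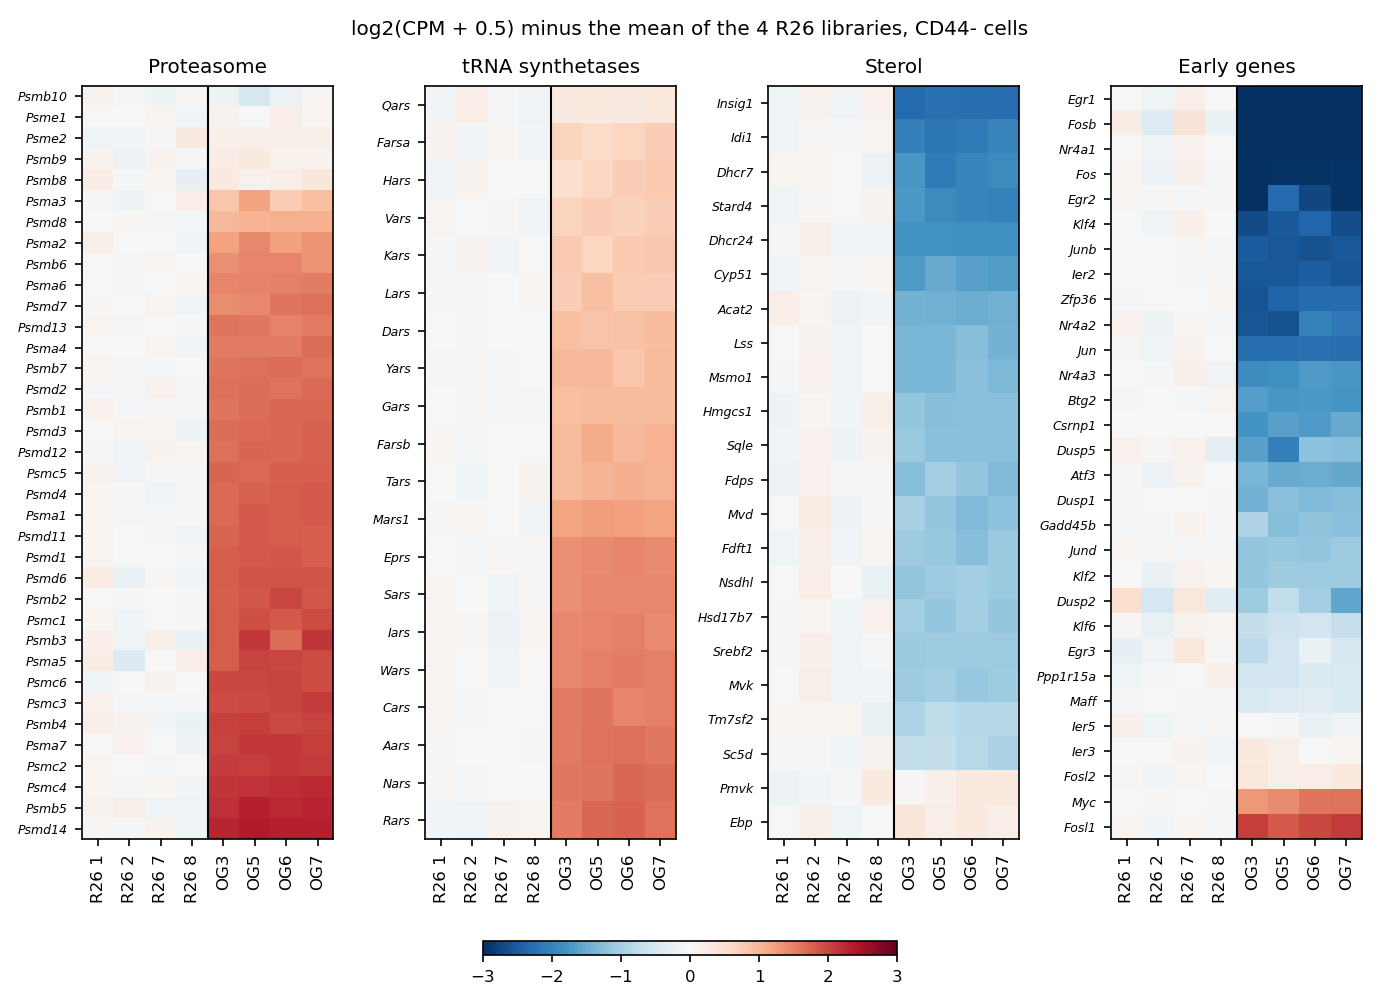
Level of tested members (rows) in each CD44- library (columns) of the proteasome, tRNA synthetase, cholesterol and immediate early lists, as log2(CPM + 0.5) minus the mean of the 4 R26 libraries; colours saturate at -3 and 3 and the vertical line parts R26 from OG. Nearly all proteasome rows are red in all 4 OG libraries except the interferon-induced subunits at the top, and nearly all sterol and early gene rows are blue.

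Genes of the transitional state between AT2 and AT1 cells, marked by Krt8, were higher in 36 of 37 cases and lower in 0, with a list median of 1.8. The CD44+ sort shared this, with 37 of 37 higher. Summed levels in OG were 14345 to 15252 CPM in CD44- cells and 23244 to 23655 CPM in CD44+ cells. Cldn4, a tight junction protein, was at 2.82, 1.83, 2.63 and 3.29 CPM in R26 and at 352, 343, 342 and 336 CPM in OG (log2 fold change 6.997 ± 0.12, adjusted p = 1.13e-20). The keratins Krt8 and Krt19 rose from 123 ± 6.2 to 341 ± 19.1 CPM and from 62 ± 2.46 to 425 ± 8.79 CPM (SD, n = 4). Plaur, the urokinase receptor, rose from 1.15 ± 0.372 to 68.5 ± 2.5 CPM. Lgals3, a lectin, and Ndrg1, a stress-response protein, had log2 fold changes of 3.60 ± 0.06 and 3.61 ± 0.06, and Sfn, a 14-3-3 protein of stratified epithelia, of 2.96 ± 0.09. Clu, a secreted chaperone, reached 4543 ± 277 CPM from 410 ± 28.7 CPM, and fibronectin (Fn1) 426 ± 7.53 CPM from 25.2 ± 2.98 CPM (SD, n = 4).

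AT1 genes were higher in 24 of 27 cases and lower in 0, with a list median of 1.02. Pdpn, a surface glycoprotein of AT1 cells, was at 13.8, 12.8, 14.7 and 13 CPM in R26 and at 116, 106, 107 and 103 CPM in OG. Ndnf and Clic5 had log2 fold changes of 3.78 ± 0.07 and 1.99 ± 0.06. Ager and the water channel Aqp5, which mark mature AT1 cells, rose less, from 863 ± 64.7 to 1498 ± 74.4 CPM and from 432 ± 26.9 to 778 ± 38.1 CPM (SD, n = 4). Emp2 and Timp3 rose by 1.06 ± 0.05 and 1.54 ± 0.07. Ion and water carriers did not share a direction, with 9 of 20 higher and 7 lower, and the sign of their median, before that of all genes is subtracted, turned with scaling: the sodium channel subunits Scnn1b (30.6 ± 1.07 to 86.6 ± 2.53 CPM) and Scnn1g (21.2 ± 0.711 to 66.1 ± 3.25 CPM) and the chloride channel Ano1 (53.2 ± 2.24 to 305 ± 21.9 CPM) rose, and Slc26a9 had a log2 fold change of -0.87 ± 0.05.

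Genes of attachment and matrix signalling rose with them. Integrins, laminins and basement membrane genes were higher in 22 of 25 cases and lower in 2, with a list median of 0.91. Itgb6, whose product pairs with that of Itgav to release active TGF-beta, was at 44.9, 36.6, 43 and 40.6 CPM in R26 and at 426, 342, 333 and 337 CPM in OG. Itgav had a log2 fold change of 1.83 ± 0.07. Itga2, a collagen receptor, was all but absent in R26 at 0.34 ± 0.327 CPM and stood at 23.3 ± 1.96 CPM in OG (SD, n = 4). The laminin receptors Itga3 and Itga6 had log2 fold changes of 1.67 ± 0.04 and 1.70 ± 0.07, while Itga9 fell by 0.61.

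Genes of the actin cytoskeleton and of mesenchymal transition were higher in 31 of 34 cases and lower in 1, with a list median of 0.66. Msn, which ties actin to the membrane, rose from 313 ± 10.1 to 1129 ± 32.4 CPM, the crosslinker Flna from 453 ± 18.8 to 1340 ± 46.3 CPM and Vcl, of focal adhesions, from 187 ± 5.59 to 486 ± 7.63 CPM (SD, n = 4). Actn1 had a log2 fold change of 1.09 ± 0.04. Ezr, the relative of Msn at the apical membrane, was the lower one (-0.11 ± 0.04, adjusted p = 0.0299), and its call was lost in 5 of 32 alternative settings. Targets of YAP and TAZ, which respond to cell stretch and shape, were higher in 18 of 27 cases and lower in 6, with a list median of 0.72. Ajuba, Ptpn14 and the DNA-binding partner Tead1 had log2 fold changes of 2.01 ± 0.06, 2.50 ± 0.09 and 1.04 ± 0.05, while Amotl2 and Rbms3 fell by 0.60 and 1.81 on the log2 scale. Tight junction genes were higher in 12 of 20 cases and lower in 3, with a list median of 0.21, and 5 or 6 were lower under 20 of 32 alternative settings. Beside Cldn4, the alveolar claudin Cldn18 rose from 1401 ± 102 to 2225 ± 94.9 CPM (SD, n = 4), Tjp1 and F11r rose by 0.57 ± 0.05 and 0.39 ± 0.04, and Tjp3 and Cldn23 fell by 0.95 and 1.39 on the log2 scale.

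Ligands that act on fibroblasts were mixed. Of 31 genes in the TGF-beta and profibrotic list, 17 were higher and 7 lower, with a list median of 0.44. Spp1 (osteopontin) rose from 0.816 ± 0.297 to 108 ± 5.23 CPM (SD, n = 4; log2 fold change 7.03 ± 0.17 SE), Tgfb2 from 2.81 ± 0.0252 to 30.3 ± 5.43 CPM and Pdgfb from 18.3 ± 1.66 to 75.4 ± 4.91 CPM. Gdf15, a stress cytokine of this family, was at 10.9, 11.7, 11.6 and 11.8 CPM in R26 and at 60.5, 60.2, 61.6 and 62 CPM in OG. The alarmin Il33 fell from 503 ± 37.6 to 332 ± 6.78 CPM, and Smad3, which relays the signal inside the cell, by 0.42 on the log2 scale. Tgfb1 was called lower (-0.23 ± 0.09, adjusted p = 0.0357) with overlapping libraries, and its call was lost without OG CD44- animal 3, 6 or 7.

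In the EGF family, 7 of 13 genes were higher and 4 lower, with a list median of 0.13. The ligands Ereg and Nrg1 rose from 0.395 ± 0.181 to 16.6 ± 0.863 CPM and from 0.872 ± 0.449 to 13.5 ± 0.887 CPM, and Areg from 97.6 ± 12.8 to 155 ± 5.42 CPM (SD, n = 4). The receptor Egfr and its feedback inhibitor Errfi1 had log2 fold changes of -1.26 and -1.83. Wnt and Notch genes were lower in 14 of 24 cases and higher in 7, with a list median of -0.59. Axin2 and Notum, readouts of canonical Wnt signalling, fell from 49.6 ± 3.77 to 11.8 ± 1.63 CPM and from 27.8 ± 1.45 to 8.76 ± 0.615 CPM, and Ctnnb1 fell by 0.71 on the log2 scale, whereas the ligand Wnt7b rose from 17.2 ± 1.45 to 46.3 ± 2.41 CPM (SD, n = 4).

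Targets of p53 and senescence genes were higher in 19 of 28 cases and lower in 4, with a list median of 0.75. Cdkn1a (p21), which blocks the cell cycle, was at 94.7, 102, 101 and 114 CPM in R26 and at 281, 281, 291 and 281 CPM in OG. Ccng1, Phlda3 and the death receptor Tnfrsf10b had log2 fold changes of 2.20 ± 0.05, 3.66 ± 0.09 and 3.66 ± 0.14, and the p53 antagonist Mdm2 of 0.75 ± 0.06. Trp53 RNA was at 17.3 ± 2.65 and 28.4 ± 3.25 CPM (SD, n = 4). Btg2, a p53 target that is also an immediate early gene, fell by 1.73 on the log2 scale. Of 40 cell cycle genes 19 were higher and 5 lower, and without R26 CD44- animal 2 or 8 the number higher was 11 each. These omissions also took the median of all genes from 0.12 to 0.0049 and 0.0048. Mki67, present in dividing cells, was at 17.7, 8.41, 20.3 and 8.72 CPM in R26 and at 42.6, 29, 35.1 and 34.5 CPM in OG (adjusted p = 0.00555). Ccnd1, which starts the cycle, rose from 329 ± 29.1 to 701 ± 11.2 CPM (SD, n = 4). Bub1, a kinase of the spindle checkpoint, and Pcna, the sliding clamp of DNA replication, were among the lowered members, from 24.6 ± 1.04 to 6.89 ± 0.978 CPM (log2 fold change -1.82 ± 0.12 SE) and from 35.6 ± 3.81 to 25.0 ± 0.909 CPM (SD, n = 4).

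Immediate early genes, which are known to be induced quickly by growth factors, stress and cell isolation, were lower in 25 of 30 cases and higher in 3, with a list median of -1.77. Fos was at 1620, 1356, 1694 and 1457 CPM in R26 and at 188, 194, 194 and 197 CPM in OG (log2 fold change -2.99 ± 0.08, adjusted p = 8.28e-19). Egr1 fell from 1579 ± 121 to 128 ± 10.4 CPM, Jun from 1658 ± 102 to 347 ± 2.83 CPM and Nr4a1 from 609 ± 43.9 to 66.9 ± 1.37 CPM (SD, n = 4). Fosb varied within R26, at 737, 480, 821 and 548 CPM, against 55.6 ± 3.8 CPM in OG (SD, n = 4). Ier2, Zfp36 and Klf4 fell by 2.54, 2.40 and 2.59 on the log2 scale. Myc and Fosl1, the AP-1 member of migrating epithelium, rose by 1.52 ± 0.09 and 2.22 ± 0.16.

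Immune genes of AT2 cells were split. MHC class II, which AT2 cells are known to carry, was lower in 10 of 11 genes, with a list median of -0.83. Its master regulator Ciita fell from 71.6 ± 3.61 to 32.2 ± 3.61 CPM, H2-Ab1 from 685 ± 74.1 to 356 ± 5.75 CPM, H2-Aa from 782 ± 72.8 to 367 ± 7.98 CPM and the invariant chain Cd74 from 4257 ± 394 to 2652 ± 48.1 CPM (SD, n = 4). The member that rose, the protease Ctss, went from 0.18 ± 0.0186 to 6.88 ± 0.459 CPM and is also abundant in macrophages. Interferon genes were higher in 19 of 34 cases and lower in 7, with a list median of 0.39: Rsad2 rose from 0.778 ± 0.198 to 7.91 ± 0.778 CPM and Ifit1 from 1.36 ± 0.0544 to 4.28 ± 0.72 CPM, while the regulators Irf1 and Stat2 fell by 1.62 and 1.22 on the log2 scale.

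Chemokine and NF-kappaB genes were higher in 14 of 34 cases and lower in 14, and the sign of their median before the subtraction turned with scaling. The feedback regulators Nfkbiz and Nfkbia, induced by NF-kappaB, fell from 222 ± 17.4 to 31.3 ± 0.952 CPM and from 236 ± 38.9 to 73.4 ± 6.61 CPM (SD, n = 4). Icam1 and Lif rose, from 721 ± 25.9 to 1170 ± 55 CPM and from 1.72 ± 0.277 to 10.6 ± 1.04 CPM. Ccl6, a chemokine of myeloid cells, was at 0.161, 0.25, 0 and 0 CPM in R26 and at 8.42, 7.35, 7.04 and 8.84 CPM in OG.

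Several of the largest changes belonged to none of the pathways above. Mt3, a metallothionein, had 0 counts in all 4 R26 libraries and 40.6 ± 5.16 CPM in OG (SD, n = 4), at least 759-fold higher when 3 counts over the R26 group are taken as the floor. Uchl1, a ubiquitin hydrolase of neurons and neuroendocrine cells, rose from 0.365 ± 0.189 to 206 ± 5.8 CPM. Ptprn, a protein of secretory granules, rose from 4.76 ± 0.723 to 597 ± 24.6 CPM, and the kinesin Kif1a from 3.27 ± 0.098 to 389 ± 12.6 CPM. These genes are best known from nerve and endocrine cells, as are Tenm4 (1.35 ± 0.157 to 117 ± 4.42 CPM) and the potassium channel Kcnn3 (0.572 ± 0.0932 to 44.5 ± 4.51 CPM; SD, n = 4). Cd177, a surface protein known from neutrophils, rose from 0.443 ± 0.363 to 44.3 ± 4.67 CPM. The largest falls outside the lists were Pon1 (43, 70.2, 35.5 and 73.6 CPM in R26; 2.1 ± 0.209 CPM in OG, SD, n = 4), Tmem132d (93.6 ± 8.18 to 4.04 ± 0.314 CPM), Iqcn (39.4 ± 4.06 to 1.78 ± 0.582 CPM) and Gem, a small GTP-binding protein (320 ± 32.1 to 19.9 ± 1.31 CPM). Bex2, Ppp1r1b and Tent5a fell by 4.00, 3.60 and 3.41 on the log2 scale. The lipase Mgll fell by 3.94.

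Markers of other cell types moved with genotype in the same libraries. Summed levels of 27 fibroblast and mural markers were 866 to 937 CPM in the R26 libraries and 2611 to 2654 CPM in the OG libraries, with 21 of 26 tested members higher and 1 lower. Col1a1 rose from 25 ± 3.35 to 290 ± 13.5 CPM, Col3a1 from 35.4 ± 7.05 to 230 ± 7.04 CPM and Pdgfra from 14.1 ± 1.88 to 35.2 ± 1.41 CPM (SD, n = 4). Sparc rose from 210 ± 17.4 to 586 ± 20.1 CPM. Macrophage markers without Lyz2 summed to 141 to 154 CPM in R26 and 201 to 209 CPM in OG. Of 19 tested macrophage markers, Lyz2 among them, 13 were higher and 2 lower. Marco had 0 counts in R26 and 1.81 ± 0.443 CPM in OG, at least 33.5-fold higher against 3 counts over the group. Mrc1 was at 0.23 ± 0.209 and 3.26 ± 0.713 CPM and Chil3 at 0.905 ± 0.453 and 24.7 ± 1.09 CPM (SD, n = 4). C1qa rested on 1 count in R26 and 42 in OG, a ratio of 34.5 with a 95% counting interval of 5.87 to 1397.

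Endothelial markers summed to 148 to 175 CPM in R26 and 215 to 224 CPM in OG. Of 20 tested, 9 were higher and 1 lower, against 39.4% and 29.6% of all genes, and 10 did not pass the test. Cdh5, which defines endothelium, was at 3.23 ± 1.03 and 6.96 ± 0.667 CPM (SD, n = 4). Lymphocyte and plasma cell markers summed to 20.9 to 40.1 and 79.3 to 150 CPM, with 5 of 9 tested members higher and 1 lower. Igha, an immunoglobulin gene whose reads can be shared with related segments, was at 12.5, 11.5, 8.03 and 4.46 CPM in R26 and at 66.7, 32.5, 35.8 and 34.6 CPM in OG, and Igkc was at 6.78 ± 3.22 and 40.4 ± 12.5 CPM (SD, n = 4). Cd8a, Ncr1 and Klrb1c had 0 counts in OG, which allows up to 0.0448 CPM (3 counts over the group). Ciliated markers summed to 141 to 170 and 263 to 274 CPM, with 13 of 20 tested members higher and 1 lower. Foxj1 was at 13.3 ± 3.12 and 33.9 ± 2.04 CPM. Club cell markers without Sftpd went the other way, from 3782 to 5176 down to 1524 to 1759 CPM, and Scgb1a1 did not pass the test (584 ± 195 and 470 ± 49.5 CPM, adjusted p = 0.275). Of 18 tested club markers, Sftpd among them, 1 was higher and 7 lower. Basal markers summed to 2.84 to 4.51 and 7.77 to 9.23 CPM: Krt17 had 0 counts in R26 and 5.76 ± 0.261 CPM in OG (SD, n = 4), at least 106-fold higher against 3 counts over the group. Without Krt17 the basal sums were 2.84 to 4.51 and 2.34 to 3.19 CPM. In the full basal list 2 of 5 tested members were higher and 1 lower. These sums without Krt17, and those without Krt19 and Uchl1 below, were chosen after the values were seen. Mesothelial markers, which include Krt19 and Msln (3.54 ± 1.05 and 36.1 ± 2.95 CPM), summed to 72.1 to 77.3 and 465 to 478 CPM, or 12.6 to 13.8 and 42.7 to 53.6 CPM without Krt19, and 2 of 5 tested members were higher. Neuroendocrine and tuft markers, which include Uchl1, summed to 63.9 to 73.3 and 278 to 286 CPM, or 63.4 to 73.0 and 73.3 to 79.6 CPM without Uchl1, and 3 of 6 tested members were higher and 3 lower. Neutrophil and mast cell markers stayed at or under 1.34 CPM and erythroid markers at or under 8.75 CPM in every CD44- library. The part of these cell types in the fibrillar collagen, Ctss, Ccl6, Fn1 and interferon results was not tested.

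**Figure D4:**
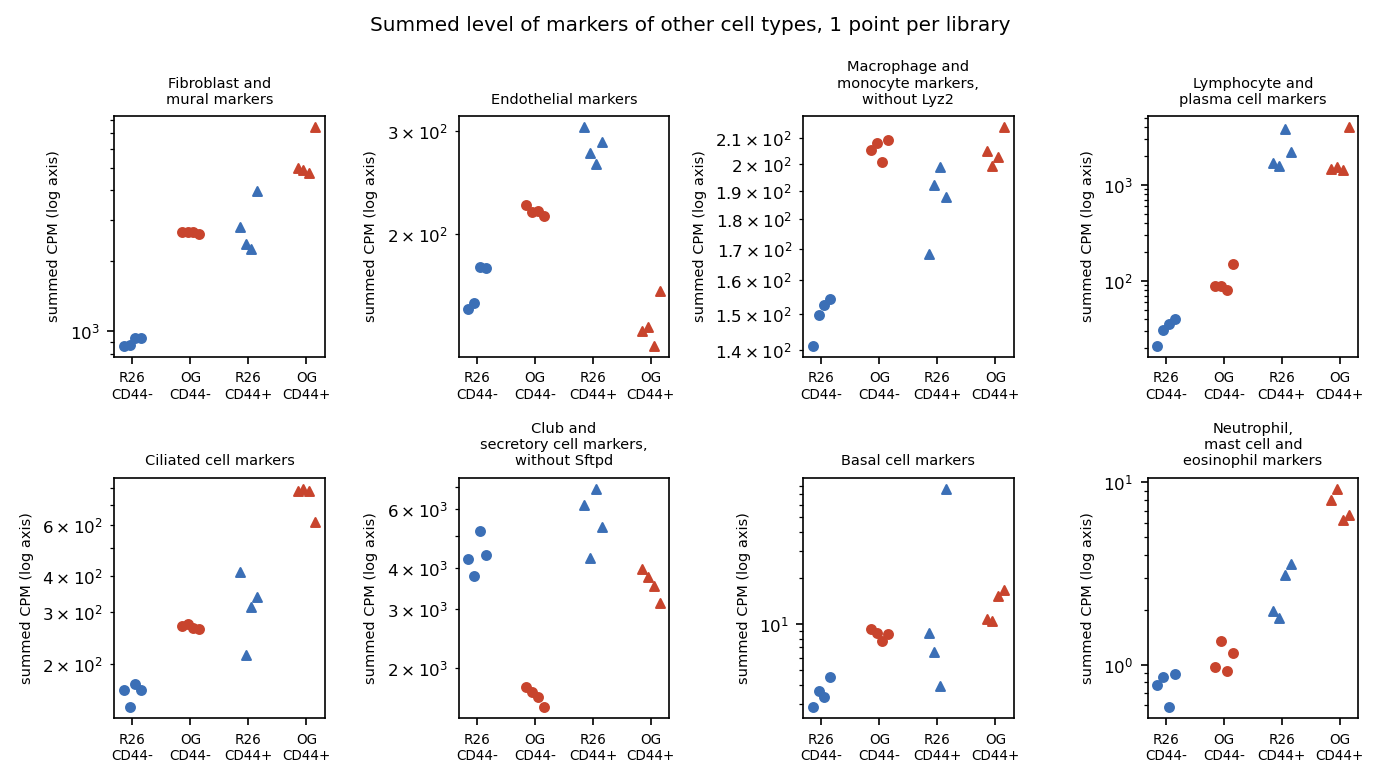
Summed CPM of marker lists of other cell types (log axes, a different range per panel), 1 point per library, in R26 (blue) and OG (red) CD44- cells (circles) and CD44+ cells (triangles). OG circles lie above R26 circles for fibroblast, endothelial, macrophage, lymphocyte, ciliated, basal and neutrophil lists and below them for club cells.

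The CD44+ sort of the same animals gives the nearest comparison. There OG against R26 gave 5358 genes higher (34.5%) and 5368 lower (34.6%), or 69.1% in all, and 8412 genes were called in the same direction in both sorts. A test of the difference between the sorts' fold changes called 2806 genes (18.1%) with a higher value in CD44- cells and 1019 (6.57%) with a lower one. That split changed with the scaling reference: with an R26 CD44- library as TMM reference the counts were 2524 to 2611 and 1178 to 1235, and with an OG CD44- library they were 1697 to 1721 and 2304 to 2369. Without any single R26 library they were 1651 to 2104 and 1720 to 2419, and without any single OG library 2460 to 2865 and 824 to 1101. A minimum difference of 1.5-fold left 613 and 55.

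Several of the most raised genes had larger fold changes in CD44- cells. Slc7a11 had a log2 fold change of 9.24 in CD44- and 6.23 in CD44+ cells (difference 3.003, adjusted p = 1.56e-08), Mthfd2 5.37 and 3.10 (difference 2.26), Plaur 5.91 and 3.55 (difference 2.36), Srxn1 5.15 and 3.51 (difference 1.63) and Pdpn 2.99 and 1.31 (difference 1.68). R26 levels of all of these were lower in CD44- than in CD44+ cells, such as 0.965 and 4.68 CPM for Slc7a11. Plaur was at 1.15 and 7.11 CPM and Pdpn at 13.6 and 52.7 CPM. In OG, Plaur (68.5 and 84.2 CPM) and Pdpn (108 and 131 CPM) were also lower in CD44- cells. Slc7a11 (597 and 356 CPM), Mthfd2 and Srxn1 were higher there. By list, 27 of 35 ATF4 targets, 24 of 36 proteasome subunits, 19 of 33 NRF2 genes and 14 of 18 cytosolic chaperones differed with a higher value in CD44- cells, against 18.1% of all genes. Chaperones of the endoplasmic reticulum did so in 5 of 24 cases and its sensors and degradation genes in 7 of 23, while 2 and 3 had a lower value. Hspa5 (0.27, adjusted p = 0.0206), Sel1l (0.38, adjusted p = 0.000123) and Vcp (0.23, adjusted p = 0.0184) were among those with a higher value. Herpud1 (-0.32, adjusted p = 0.00107) had a lower one. The differences of Pdia4 (-0.01, adjusted p = 0.923), Pdia3 (-0.04, adjusted p = 0.707) and Wfs1 (-0.19, adjusted p = 0.191) did not pass the test. AT2 genes were mostly lowered less in CD44- cells. Of 34 identity genes 19 differed, 18 with a higher value and 1, Ctsh (difference -0.81), with a lower one. Lyz2 was at -2.22 and -4.09 (difference 1.87) and Sftpa1 at -1.31 and -2.32 (difference 1.01). Sftpc did not pass this test, at -2.77 and -3.02 (difference 0.25, adjusted p = 0.28). Of 24 cholesterol genes 7 differed, 6 of them with a lower value in CD44- cells, against 24.7% and 6.57% of all genes. Cyp51 was at -1.64 and -1.24 (difference -0.39, adjusted p = 0.0261), Idi1 at -2.11 and -2.03 and Stard4 at -1.95 and -1.97. Some other lists also held lower values above the 6.57% of all genes. Tight junction genes differed with a higher value in CD44- cells in 2 of 20 cases and a lower one in 9. Cytoskeleton and mesenchymal transition genes did so in 11 and 13 of 34 cases. For transitional genes the counts were 12 and 9 of 37, and for the TGF-beta and profibrotic list 8 and 8 of 31. The list counts of this paragraph hold for the main scaling and were not repeated under the other scalings, which changed the split over all genes.

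Among genes with a mean log2 CPM of at least 4, the largest positive differences included genes that rose in CD44- cells and had negative fold changes in CD44+ cells. Tnxb, tenascin X, was at 1.54 and -1.84 (difference 3.38, adjusted p = 9.69e-07), Dcn (decorin) at 1.55 and -1.16 (difference 2.72) and Hhip, a hedgehog antagonist, at 1.19 and -2.07 (difference 3.25). The Hhip call in CD44- cells was lost without R26 CD44- animal 7 or 8. These omissions also took the median of all genes in CD44- cells from 0.12 to 0.0058 and 0.0048. Jchain, the joining chain of antibodies, was at 2.91 and 0.07 (difference 2.84). Cdh5, not chosen by rank but as an endothelial marker, was at 1.13 and -3.15 (difference 4.28). In CD44+ cells, summed fibroblast and mural markers were 2251 to 3963 CPM in R26 and 4729 to 7435 CPM in OG. Lymphocyte and plasma cell markers summed there to 1590 to 3848 and 1426 to 4019 CPM, and endothelial markers to 263 to 305 and 128 to 159 CPM. The part of these cell types in the differences of Tnxb, Dcn, Jchain and Cdh5 was not tested. The largest negative differences were Slc7a2, an arginine importer (-1.60 and 0.04, difference -1.64), Rgs16 (-1.25 and 0.30, difference -1.55), Tgfbi (-1.50 and -0.02, difference -1.48), the mucin Muc5b (-0.35 and 1.03, difference -1.38) and Tnfrsf23 (2.35 and 3.71, difference -1.36).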

How the data were processed

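Sorted AT2 cells of 8 mice gave 16 libraries, made, per the labels' protocols, with a strand-marking kit for total RNA after ribosomal RNA was removed. The authors deposited whole-number read counts per gene, not normalized. The submitters' processing notes name Bowtie2 and mm10. The counting program, annotation and strand setting are not given in the sources used here, so reads of overlapping antisense genes cannot be told apart. Symbols were matched through NCBI tables (GRCm38.p6) for 25275 of 27179 identifiers (93.0%). An identifier without a symbol there took 4.98% to 7.40% of CD44- counts and stayed in. Promoter sequences are from RefSeq.

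Groups were taken from the column names as the report states. The numbers in them were read as animals and could not be tied to replicate numbers in the titles, so the p-values measure the spread between these libraries. Tests were run in edgeR 4.0.16 (R 4.3.3), with genes kept by filterByExpr, TMM factors and the robust quasi-likelihood F test over all 16 libraries with 1 mean per group, and Benjamini-Hochberg adjusted p under 0.05. The SE is the log2 fold change divided by the square root of F, without its sign. CPM are TMM-scaled. Floors and counting intervals hold counting error and nothing else, as reads carry no molecular identifiers. The methods were tested on simulated data in which few genes changed, unlike these data, so the dependence on scaling was not tested there. The recovery required of 2-fold changes was limited to genes above a low level, after genes at low levels had missed it.

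The comparison, the 45 gene lists (1026 genes in the table, 1 listed gene absent) and the tests were chosen with earlier results of these data known. Genes were named by a rule: Sftpc and the antigens of the sort, then, in each direction, the 12 called genes of largest fold change whose groups do not overlap and whose mean log2 CPM reaches 4, 5 members per list with the smallest adjusted p and mean log2 CPM of at least 1, 2 members in the minority direction, members central to their list, and the 5 largest differences between sorts each way. Predicted, unnamed and noncoding genes were passed over, and not every gene the rule takes is printed: a few list members are not reported here by name, though the list counts include them. Alternatives were DESeq2 1.42.0 size factors and Wald test, no filter, at least 50 counts in 4 libraries, the 8 CD44- libraries alone, a replicate block, a 1.5-fold minimum, limma 3.58.1 voom with quality weights, leaving out each library, and other TMM references.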

Additional observations from a re-analysis of the deposited data

Results flagged for a closer look

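In 34 of 508 groups of 4 libraries examined for the genes named (6.69%), 1 library stood far from the other 3, where chance gives about 1 in 20. OG animal 3 was the far library in 16 of them. It was high for Emp2 (1239 CPM against 1115 to 1129), Itgb6 (426 against 333 to 342), Sdf2l1 (28.3 against 25.2 to 25.5), Ccnd1 (718 against 693 to 697), Icam1 (1252 against 1139 to 1145), Tgfbi (29.8 against 23.1 to 23.97), Flna (1408 against 1308 to 1321), Ajuba (76.8 against 66.1 to 67.5) and Amotl2 (169 against 147 to 151). Igha (66.7 against 32.5 to 35.8) and Jchain (15.2 against 8.35 to 8.52) were high in it as well. It was low for Dnajb9 (86.2 against 94.3 to 95.8), Herpud1 (178 against 198 to 201), Chac1 (26.6 against 32.3 to 33.3), Srxn1 (653 against 726 to 741) and Errfi1 (461 against 518 to 528).

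The other OG libraries gave 7 such values. OG animal 6 was low for Ptprc (0.717 CPM against 1.33 to 1.42) and high for Kif1a (408 against 382 to 383) and Cdkn1a (291 against 280.7 to 280.9). OG animal 5 was low for Sfn (294 against 302) and high for Trib3 (117 against 104 to 106) and Phgdh (6.35 against 4.39 to 4.56). OG animal 7 was low for Krt19 (412 against 428 to 430.3). Among the R26 libraries, animal 8 was high for Sftpd (2505 against 2319 to 2337) and F3 (28.1 against 24.7 to 25.0) and low for H2-Aa (673 against 811 to 828) and Cd74 (3672 against 4384 to 4524). R26 animal 7 was low for Krt19 (58.4 against 62.9 to 63.7), Pdgfra (11.3 against 14.8 to 15.3) and Sdhb (27.0 against 31.2 to 31.98) and high for Notum (29.9 against 26.9 to 27.2) and Pcna (41.3 against 33.3 to 34.1). R26 animal 1 was high for Psmc3 (48.3 against 42.9 to 43.6) and held the 1 count of C1qa (0.0805 CPM against 0). In none of these groups did OG and R26 libraries overlap.

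The genotype difference was not the same in the 2 sorts for 2806 genes with a higher value in CD44- cells and 1019 with a lower one, by the edgeR test of the difference. Among genes with a mean log2 CPM of at least 4 that the naming rule takes, the largest such differences were those of Tnxb (3.38), Hhip (3.25), Slc7a11 (3.003), Jchain (2.84) and Dcn (2.72) on one side and Slc7a2 (-1.64), Rgs16 (-1.55), Tgfbi (-1.48), Muc5b (-1.38) and Tnfrsf23 (-1.36) on the other, on the log2 scale.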

How the results depend on the processing

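The numbers of genes called between OG and R26 in CD44- cells stayed within 1.5 times of 6113 and 4592 except under a 1.5-fold minimum, which left 2551 and 2095 genes (2154 and 2625 in CD44+ cells). Leaving out 1 library gave 4874 to 6253 higher and 4381 to 5523 lower in CD44- cells, and 5168 to 5543 and 5170 to 5406 in CD44+ cells. With any CD44- library as TMM reference the CD44- counts were 5282 to 5353 and 5232 to 5290, a more even split. The difference between the sorts depended on the scaling. Leaving out 1 library gave 1651 to 2865 genes with a higher and 824 to 2419 with a lower value in CD44- cells. All 8 omissions of an R26 library lay at 1651 to 2104 and 1720 to 2419. A 1.5-fold minimum gave 613 and 55. R26 8, 7, 2 and 1 of the CD44- sort as TMM reference gave 2591, 2611, 2524 and 2533 higher and 1188, 1178, 1235 and 1234 lower. TMM references OG 7, 6, 5 and 3 of the CD44- sort gave 1697, 1721, 1713 and 1717 higher and 2369, 2304, 2314 and 2314 lower. The cause was not tested.

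OG and R26 libraries come from different animals, so no pairing across genotypes exists. A replicate block on the animal over both sorts (voom, consensus correlation 0.182) gave 6139 higher and 4651 lower in CD44- cells and, for the difference between the sorts, 3240 and 1369. Deviations of an animal's 2 sorts correlated at 0.126 to 0.240 in R26 and 0.0199 to 0.0967 in OG. Over 254 named genes and 32 settings, 8016 values kept direction and side of the threshold, 97 lost the call, 10 gained one and 1 reversed: Pecam1, which did not pass the test, was at -0.00426 to 0.363 with 1 library left out, the lowest without R26 CD44- animal 7. Depth limits fold changes of genes near 0 in R26: those with at most 1 count there have a bound or an interval, and the others, such as Phgdh, Spp1 and Slc7a11 with 20, 45 and 54 counts over the R26 libraries, a fitted value.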

Other observations

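Complement and coagulation genes had 14 of 24 members higher in OG and 5 lower (3 without OG CD44- animal 5 or 6), with a list median of 0.72. Procr, the protein C receptor, rose from 0.953 ± 0.496 to 57.7 ± 0.924 CPM (SD, n = 4; log2 fold change 5.85 ± 0.18 SE) and F3, tissue factor, from 25.7 ± 1.6 to 120 ± 4.3 CPM. C3, the central complement protein, was lower, at 671 ± 13.5 against 900 ± 4.91 CPM (SD, n = 4). MHC class I genes showed no common direction, with 7 of 16 higher and 2 lower, and 4 higher without R26 CD44- animal 8. That omission also took the median of all genes from 0.12 to 0.0048. The loading factors Tapbp and Tap2 rose by 0.87 ± 0.06 and 0.50 ± 0.07 and the heavy chains H2-T22 and H2-D1 by 1.39 ± 0.07 and 0.46 ± 0.06, while H2-Q4 and H2-Q6 fell by 0.78 and 0.93 on the log2 scale. The class I heavy chain genes share near-identical copies, so their counts are uncertain. Among lysozymes and antimicrobial genes, 4 of 15 were higher and 6 lower, with a list median of -0.36: the chitinase-like Chil1 fell from 5094 ± 505 to 1544 ± 89 CPM and the protease inhibitor Slpi rose from 23.8 ± 2.28 to 46.5 ± 3.02 CPM (SD, n = 4).

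Within R26, animals 1 and 7 differed from animals 2 and 8 in several genes that also separate the genotypes. Nfkbia was at 261 and 277 CPM in animals 1 and 7 and at 197 and 210 CPM in animals 2 and 8, and Rgs16 at 24.9 and 25.1 CPM against 14.2 and 15.1 CPM. Mgll went the other way, at 64 and 58.8 CPM in animals 1 and 7 and at 98.7 and 98.4 CPM in animals 2 and 8, as did Slc7a2, at 28 and 23.9 CPM against 38.7 and 39.4 CPM. No label ties these animals to a batch, and the pairs were noticed in the data.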
